A study of Mus musculus with 12 samples.

Results

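Type I interferon-stimulated genes are the mRNAs that cells raise when type I interferons bind their receptor. A published-knowledge list of 38 of them was looked up by gene symbol in a table of 13283 mRNAs, and all 38 were found there. The table holds FPKM values (fragments per kilobase of exon, scaled for library size) of mouse cytotoxic T lymphocytes (CTL), the effector cells that CD8+ T cells become after activation. The study asked how long inhibition of the lipid kinase PI3K p110δ changes the mRNAs of CTL, and which changes depend on the transcription factor FOXO1. PI3Kdi stands for IC87114, a small-molecule inhibitor of PI3K p110δ.

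There were 4 groups of 3 libraries. WT CTL came from GzmB cre+ mice and had vehicle (DMSO). WT+PI3Kdi CTL were the same genotype with 10 µM IC87114 for 24 h. FOXO1-GFP KO CTL had vehicle and carried FOXO1-GFP fl/fl beside GzmB cre+. FOXO1-GFP KO+PI3Kdi CTL had that genotype and 10 µM IC87114 for 24 h. All groups thus carried a Cre recombinase driven by the granzyme B promoter, which deletes the floxed gene only once T cells become effectors. All mice were female adults. All cells were activated with anti-CD3 and anti-CD28 for 48 h and then grown on. IL-2 at 20 ng/mL and IL-12 at 2 ng/mL were present in both steps. FOXO1-GFP KO cells were sorted as live CD8+ cells without GFP, whereas WT cells were sorted as live CD8+ cells, so the gate differed between the genotypes. Replicate numbers tie each vehicle library to one PI3Kdi library of the same genotype, and such libraries are called a pair here. Whether one mouse gave both libraries of a pair is not in the labels.

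Foxo1 mRNA was at 5.77 to 10.46 FPKM in the 6 WT libraries and at 0.58 to 1.75 FPKM in the 6 FOXO1-GFP KO libraries. Cd8a was at 139.05 to 253.21 FPKM in every library, and Cd4 was at 0.09 to 0.95 FPKM. Of 12 B cell markers, 7 were in the table, and their summed level was 19.6 to 26.0 FPKM in the WT libraries and 8.82 to 11.9 FPKM in the FOXO1-GFP KO libraries, mostly through Ighm. The 4 of 8 plasmacytoid dendritic cell markers in the table summed to 4.32 to 7.48 FPKM over the 12 libraries, of which Lair1 alone held 3.01 to 6.28 FPKM. Cox6a2 was at 0.23, 0.0 and 0.29 FPKM in WT+PI3Kdi and at 1.06, 0.91 and 0.92 FPKM in FOXO1-GFP KO+PI3Kdi. By the tests described below, that difference had a limma adjusted p of 0.0204, or 0.157 with the pair as a block. Tcf4 went the other way, at 0.63, 0.58 and 0.56 FPKM in WT+PI3Kdi and 0.45, 0.54 and 0.36 FPKM in FOXO1-GFP KO+PI3Kdi. Lair1 and Pacsin1 overlapped between these groups, with means of 3.98 and 0.193 FPKM in WT+PI3Kdi and 4.23 and 0.793 FPKM in FOXO1-GFP KO+PI3Kdi. Of 13 macrophage and dendritic cell markers, 5 were in the table and summed to 15.3 to 27.4 FPKM; Cd68 alone held 14.54 to 26.95 FPKM, and Itgam, Itgax, Mpeg1 and Cd14 were each under 0.5 FPKM. The 4 of 7 NK cell markers in the table summed to 22.4 to 49.8 FPKM, of which Fcer1g alone held 17.66 to 41.17 FPKM. The part of these markers in the results below was not tested. Depth, recovered from the steps of the lowest FPKM values, was 12.9 to 48.0 M reads (M, mega) per library. It is the library size as scaled by the authors, and not a count of sequenced reads.

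Type I interferon binds the receptor chains IFNAR1 and IFNAR2, and the kinases JAK1 and TYK2 then start a signal that reaches the nucleus through STAT2 and IRF9, among others. These act at interferon-stimulated response elements (ISRE) in promoters. The induced proteins sense viral RNA, stop its translation or copying, tag proteins with the ubiquitin-like ISG15, or damp the pathway again. T cells keep part of this set on without added interferon. FOXO1 binds a different core sequence, GTAAACA.

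RefSeq promoter windows on GRCm38.p6, from 250 bases before to 50 after a transcription start, were found for 29 of the 38 genes. Dhx58, Oas2, Parp9, Mx1, Mx2, Rtp4, Zbp1, Parp14 and Usp18 had none. Each window was searched on both strands for the ISRE core (GAAA, any 2 bases, GAAA), for TTCNNNGAA (the core of the gamma-activated site) and for GTAAACA. The ISRE core was in the windows of 12 of the 29 genes (41.4%), against 3.89% of the 9623 genes of the FPKM table with a window and 3.44% of all 32851 windows. TTCNNNGAA was in those of 9 genes (31.0%), against 8.23% of the 9623 genes and 8.3% of all windows. GTAAACA was in that of 1 gene, Rsad2 (3.45%), against 3.04% of the 9623 genes and 3.65% of all windows. A match is a description of letters and not a proven binding site.

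The stretches below are shown because they hold these cores upstream of 5 genes described later. Capitals mark the matched cores, and each sequence is read 5′ to 3′ on the strand of its gene. The Isg15 stretch (chr4:156200860-156200911, minus strand) holds 3 overlapping ISRE cores. The Ifit3 stretch (chr19:34583358-34583431, plus strand) holds 2 ISRE cores, read here on the opposite strand. The Oas1a stretch (chr5:120907526-120907638, minus strand) holds a TTCNNNGAA match and, near the start site, 2 overlapping ISRE cores. The Rsad2 stretch (chr12:26456548-26456679, minus strand) opens with GTAAACA on the opposite strand and closes with an ISRE core. The Irf1 stretch (chr11:53769909-53769947, plus strand) holds a TTCNNNGAA match and no ISRE core.
Isg15: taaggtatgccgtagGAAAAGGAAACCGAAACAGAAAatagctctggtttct
Ifit3: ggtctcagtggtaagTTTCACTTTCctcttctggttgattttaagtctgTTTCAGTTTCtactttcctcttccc
Oas1a: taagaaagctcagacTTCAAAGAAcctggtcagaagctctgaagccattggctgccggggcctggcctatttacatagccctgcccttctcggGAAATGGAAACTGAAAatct
Rsad2: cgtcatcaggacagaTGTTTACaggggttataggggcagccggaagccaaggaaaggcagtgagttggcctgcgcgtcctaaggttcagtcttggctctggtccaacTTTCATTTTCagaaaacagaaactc
Irf1: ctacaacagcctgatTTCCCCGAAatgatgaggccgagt

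The 38 genes spanned a wide range of levels in these CTL. Their mean FPKM over the 12 libraries ran from 0.0675 (Ifi44) to 103 (Bst2), with a median of 11.2, against a median of 5.05 over all mRNAs of the table. Of the 38, 20 were at 10 FPKM or more, 12 between 1 and 10 FPKM, and 6 under 1 FPKM. Bst2 encodes tetherin, which holds budding virus at the cell surface. Its libraries ranged from 81.43 to 124.86 FPKM, above 96.6% of mRNAs. Below it stood Irf1 (64.6), Isg20 (63.5), Ifi35 (46.1), Zbp1 (45.8), Samhd1 (33.3) and Sp100 (32.0 FPKM on average). At the other end, Mx2 and Ifi44 rested on 3 to 28 reads per library, too few to order their groups. Oasl1, Oas2, Rsad2 and Ifit3 were all between 0.602 and 0.762 FPKM on average. Related members of the list were higher, among them Oas3 (20.9), Mx1 (16.5), Ifit2 (4.2) and Ifit1 (1.42 FPKM on average). Neighbours in this order often overlapped across libraries, as the plot of levels by library shows. In bulk libraries, a lower value can come from fewer cells with an mRNA or from less of it per cell, and these cannot be told apart.

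**Figure D1:**
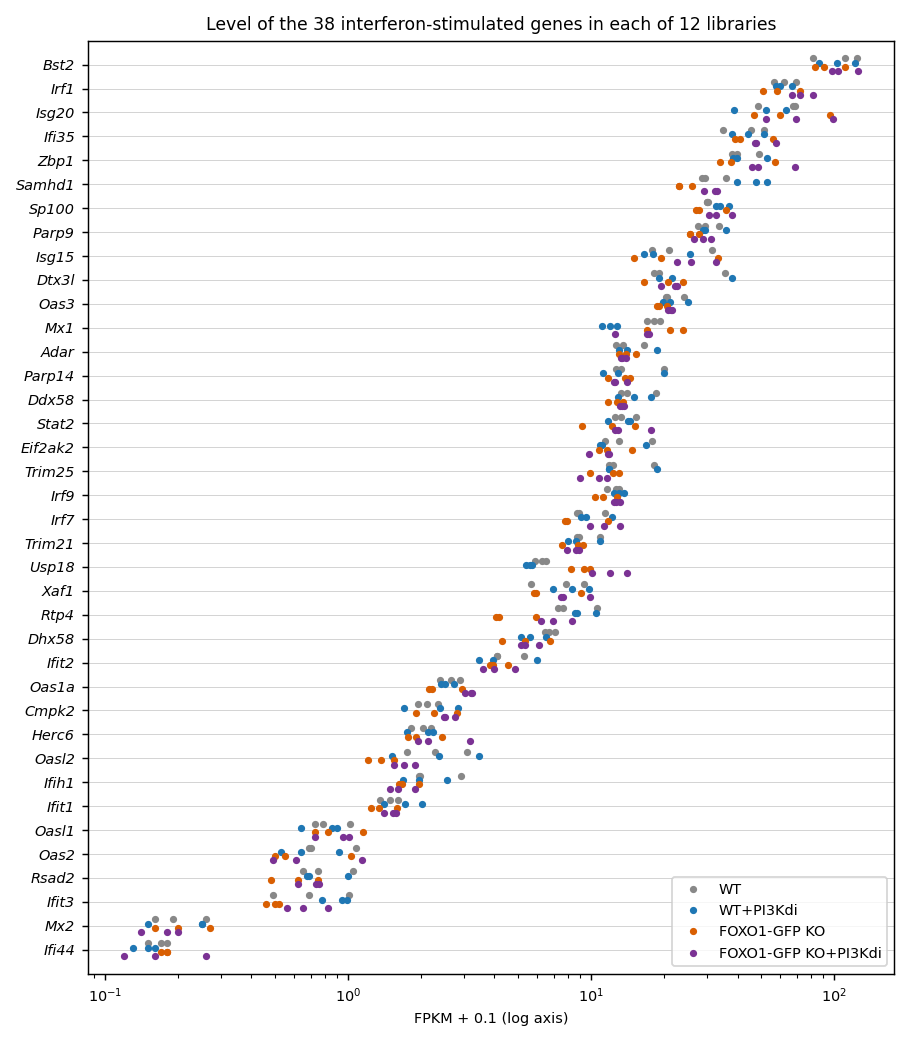
FPKM plus 0.1 (log axis) of each of the 38 interferon-stimulated genes in the 12 libraries, 1 point per library, coloured by group and ordered by mean level. Levels run from Ifi44 and Mx2 near the floor to Bst2 at about 103 FPKM, and for most genes the 4 groups overlap.

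Most of the spread of these genes lay between pairs rather than between groups. For the median gene of the 38, 63.0% of the sum of squares of log2(FPKM + 0.1) was between replicate pairs within a genotype, 10.0% between genotypes and 5.24% between vehicle and PI3Kdi. Over the 10369 mRNAs with a mean of at least 1 FPKM and a known length, the same shares were 65.1%, 8.27% and 6.39%. The interaction and residual shares were 2.97% and 6.49% for the 38, and 1.64% and 6.11% for those mRNAs. The pair share spans more degrees of freedom than the genotype or PI3Kdi share, so their sizes are not directly comparable. Differences were therefore tested with limma on log2(FPKM + 0.1), without and with the pair as a block. To be called, an mRNA needed an adjusted p under 0.05 (Benjamini-Hochberg, over the 13283 mRNAs) together with a change of more than 1.5-fold, which is 0.585 on the log2 scale.

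Usp18 separated the genotypes most clearly. It encodes the protease that removes ISG15 from proteins and also damps signalling at IFNAR2. Its level was 6.42, 6.19 and 5.78 FPKM in WT, and 5.29, 5.48 and 5.63 FPKM in WT+PI3Kdi. The FOXO1-GFP KO libraries stood at 9.25, 8.14 and 9.81 FPKM with vehicle and at 13.96, 9.96 and 11.82 FPKM with PI3Kdi. Every FOXO1-GFP KO library was thus above every WT library, with and without the inhibitor. With PI3Kdi in both genotypes, Usp18 was 2.14-fold higher in FOXO1-GFP KO (log2 fold change 1.10 ± 0.13 SE, 95% interval 0.81 to 1.38, limma adjusted p = 0.00191), and it was called there with the block too (adjusted p = 0.00387). Without PI3Kdi the difference was 1.47-fold (log2 0.55 ± 0.13) and was not called (adjusted p = 0.127, or 0.28 with the block).

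Usp18 was the only one of the 38 called between genotypes with PI3Kdi, where 193 of all mRNAs were called (1.45%), or 157 with the block (1.18%). In the comparison of genotypes without PI3Kdi, limma called 0 of the 38, without or with the block, against 0.331% and 0.233% of all mRNAs. At an unadjusted p under 0.05, that comparison held 4 of the 38, 1 of them higher in FOXO1-GFP KO, and 865 of the 13283 mRNAs, 238 of them higher, and voom on estimated reads also called 0. The median log2 fold change of the 38 was -0.13 without PI3Kdi (all mRNAs -0.012) and -0.037 with it (all mRNAs 0.0061). In the same 2 comparisons, 9 and 16 of the 38 had a positive fold change, against 47.3% and 51.0% of all mRNAs.

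Rtp4 and Samhd1 lay on the other side of the genotype comparison. Rtp4 encodes a receptor transporter protein that also restricts viruses. It was at 7.54, 7.20 and 10.51 FPKM in WT and at 4.06, 3.94 and 5.84 FPKM in FOXO1-GFP KO, with no overlap. The log2 fold change of -0.86 ± 0.19 was not called (adjusted p = 0.11, or 0.298 with the block). With PI3Kdi the libraries still did not overlap, at 8.62, 8.44 and 10.35 FPKM in WT+PI3Kdi and 8.23, 6.14 and 6.89 FPKM in FOXO1-GFP KO+PI3Kdi, and the log2 fold change was -0.37 ± 0.19 (adjusted p = 0.584).

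Samhd1, named after its values were seen, encodes an enzyme that breaks down the nucleotides retroviruses need. Its level was 35.71, 29.21 and 28.51 FPKM in WT and 22.86, 25.94 and 22.86 FPKM in FOXO1-GFP KO. With PI3Kdi it was 52.88, 39.82 and 47.52 FPKM in WT and 32.72, 32.17 and 29.05 FPKM in FOXO1-GFP KO. All FOXO1-GFP KO libraries were below their WT counterparts. The log2 fold change between genotypes with PI3Kdi was -0.57 ± 0.12. It was just short of both thresholds, that for fold and that for the adjusted p (0.0508, or 0.0693 with the block).

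Across the 38 genes, the libraries of the genotypes did not overlap without PI3Kdi for 1 gene that was higher in FOXO1-GFP KO (Usp18) and for 3 that were lower (Samhd1, Rtp4 and Oasl2). All mRNAs gave 3.54% higher and 6.79% lower. With PI3Kdi, 3 were higher (Irf1, Usp18 and Oas1a) and 3 lower (Samhd1, Trim25 and Rtp4), and all mRNAs gave 6.85% and 7.9%.

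**Figure D2:**
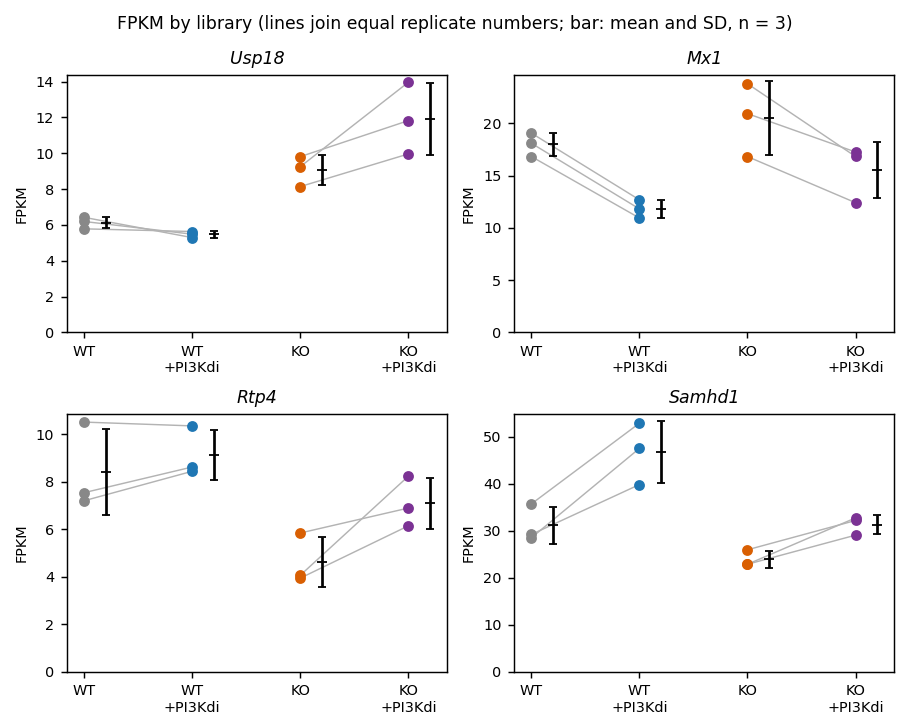
FPKM of Usp18, Mx1, Rtp4 and Samhd1 in each library (points), with grey lines joining libraries of equal replicate number and black bars giving the mean and SD of 3 libraries. Usp18 is above 8 FPKM in all FOXO1-GFP KO libraries and below 6.5 FPKM in all WT libraries, and Mx1 is lower with PI3Kdi in every pair of both genotypes.

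In WT CTL, the PI3Kdi responses of the 38 mRNAs were mostly small. The median log2 fold change was -0.0044 (all mRNAs -0.038), and the range was -0.60 to 0.58. For 25 of the 38 the 95% interval lay within 1.5-fold of no change in either direction, and with the block for 34, against 53.9% and 81.1% of all mRNAs. Limma called 0 of the 38 (0.0979% of all mRNAs), with 2 at an unadjusted p under 0.05 (683 of the 13283 mRNAs), and voom on estimated reads called 0. With the block it called 1, Mx1 (2.57% of all mRNAs). At an adjusted p under 0.05 and any fold the block gave 2 genes, Mx1 lower and Samhd1 higher, against 7.41% of all mRNAs, of which 3.88% were higher.

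Mx1 belongs to a family of dynamin-like GTPases, and only its mRNA was measured here. Its level was 16.82, 19.06 and 18.09 FPKM in WT and 10.94, 12.68 and 11.81 FPKM with PI3Kdi, with no overlap. The level was 1.52-fold lower with PI3Kdi (log2 -0.60 ± 0.15, adjusted p = 0.264, and ± 0.066 with adjusted p = 0.000297 with the block). With a pseudocount of 1 FPKM the block no longer called it. The FOXO1-GFP KO libraries had 23.79, 16.82 and 20.93 FPKM with vehicle and 16.83, 12.41 and 17.26 FPKM with PI3Kdi, lower in all 3 pairs although the groups overlapped. That log2 fold change was -0.40 ± 0.15 (adjusted p = 0.841, or 0.00451 with the block). The 2 responses of Mx1 differed by 0.20 on the log2 scale (95% interval -0.27 to 0.67, adjusted p = 1).

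Samhd1 was higher with PI3Kdi in every pair of both genotypes. Its log2 fold change in WT was 0.58 ± 0.12 (adjusted p = 0.154, or 0.00034 with the block), which is just under the fold threshold. In FOXO1-GFP KO it was 0.39 ± 0.12 (adjusted p = 0.668, or 0.00498 with the block).

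The WT libraries with and without PI3Kdi did not overlap for 2 genes that were higher with it (Samhd1 and Sp100) and for 2 that were lower (Mx1 and Usp18), against 4.43% and 5.81% of all mRNAs. By pairs, 5 of the 38 were higher in all 3 and 9 were lower in all 3, against 16.7% and 29.5% of all mRNAs.

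In FOXO1-GFP KO CTL, more of the 38 had a positive PI3Kdi response. There were 29 of the 38 with a positive log2 fold change (46.6% of all mRNAs), a median of 0.15 (all mRNAs -0.020) and a range of -0.40 to 0.62. The vehicle library of replicate 1 stood apart, with 4 of the 38 above their own mean over the 12 libraries, and without it the median was 0.072 and 24 were positive. Without FOXO1-GFP KO replicate 3 the median was 0.23. The 10 CD8 T cell and CTL markers moved in the same comparison, with 9 positive and a median of 0.29, and their part in the result was not tested. Limma without the block called 0 of the 38 (0.0452% of all mRNAs), with 5 at an unadjusted p under 0.05 (687 of the 13283 mRNAs), and voom on estimated reads called 0. With the block it called 1, Rtp4 (2.79% of all mRNAs).

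At an adjusted p under 0.05 and any fold, the block gave 8 of the 38 in FOXO1-GFP KO CTL, 7 of them higher with PI3Kdi. Over all mRNAs the same rule gave 10.1%, of which 6.02% were higher. The 7 were Zbp1, Irf7, Irf1, Usp18, Oas1a, Samhd1 and Rtp4, and the gene that was lower was Mx1. Over 5 alternative fits with the block, the limma adjusted p reached 0.0571 for Zbp1 and 0.0599 for Irf7. For the rest of these genes it stayed at or under 0.0435 (Oas1a). By pairs, 20 of the 38 were higher in all 3 and 3 were lower in all 3 (Mx1, Trim25 and Ifih1), against 23.1% and 26.4% of all mRNAs. The groups did not overlap for 6 genes that were higher (Samhd1, Oas3, Usp18, Rtp4, Oas1a and Ifit3) and for 0 that were lower, against 5.28% and 4.8%. The pairs were unequal: the median of the 38 log2 differences was 0.28 in pair 1, 0.056 in pair 2 and 0.10 in pair 3, and in WT it was 0.056, -0.057 and -0.022.

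**Figure D3:**
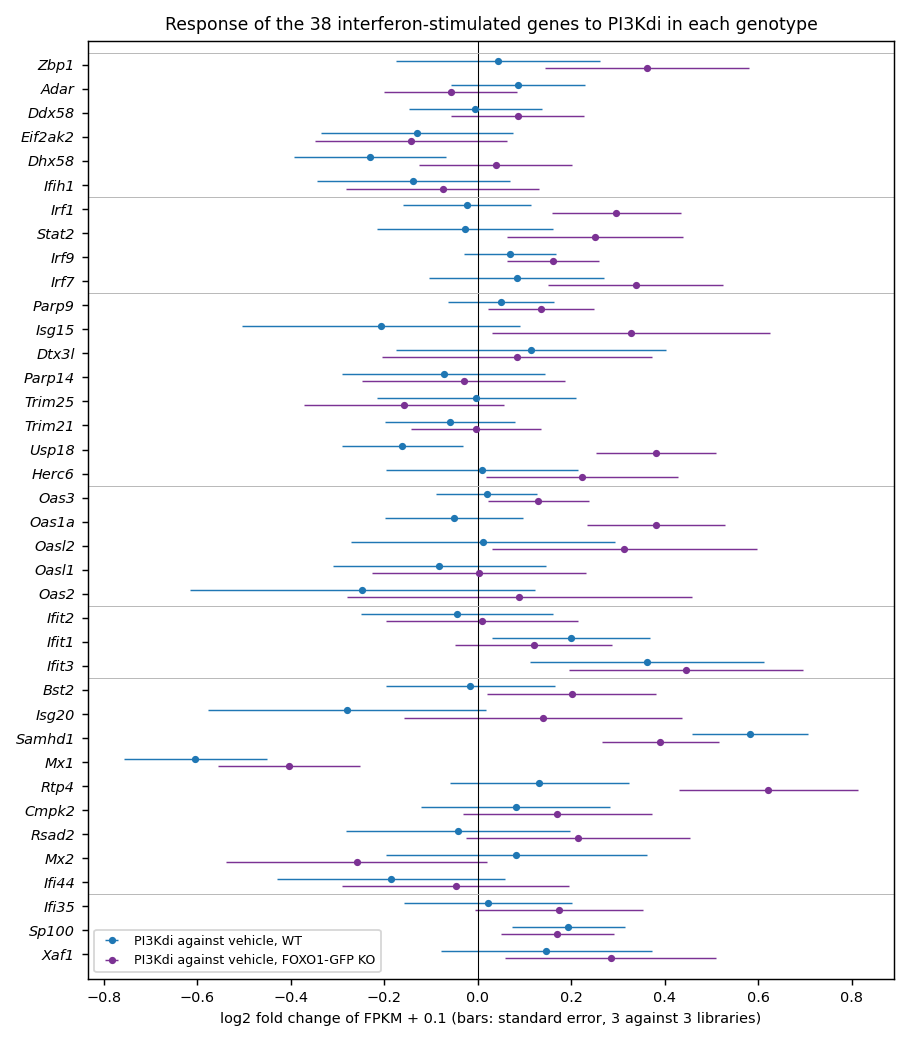
log2 fold change of FPKM + 0.1 with PI3Kdi against vehicle in WT (blue) and FOXO1-GFP KO (purple) CTL for each of the 38 genes, from the fit without the block, with bars of 1 standard error. Genes are grouped by role and ordered by level, and 29 of the 38 purple points lie above 0 against 18 of the blue ones.

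Rtp4 had the largest positive response in FOXO1-GFP KO among the 38. From the values above, it was higher with PI3Kdi in all 3 pairs and the groups did not overlap. The response was 1.54-fold (log2 0.62 ± 0.19, adjusted p = 0.642, and ± 0.12 with adjusted p = 0.00883 with the block). The call was lost without pair 1, without pair 2 and with a pseudocount of 1 FPKM. In WT the Rtp4 response was 0.13 ± 0.19 on the log2 scale.

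Among the RNA sensors and double-stranded RNA enzymes (6 genes), Zbp1, a sensor of Z-form nucleic acid, had the highest level and, in FOXO1-GFP KO, the largest PI3Kdi response. It was at 33.85, 37.46 and 57.03 FPKM in FOXO1-GFP KO and at 45.69, 48.59 and 69.15 FPKM with PI3Kdi. Each pair was higher with PI3Kdi, but the groups overlapped, and the log2 fold change was 0.36 ± 0.22 (adjusted p = 0.933, or 0.0233 with the block). In WT it was 37.75, 39.86 and 48.81 FPKM, and 38.33, 39.75 and 52.83 FPKM with PI3Kdi. The other sensors, among them RIG-I (Ddx58), MDA5 (Ifih1) and the kinase PKR (Eif2ak2), had log2 fold changes between -0.14 and 0.09 in FOXO1-GFP KO, and the median of the 6 was -0.010.

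All 4 transcription factors of the list had a positive PI3Kdi response in FOXO1-GFP KO, with a median of 0.27, and 2 did in WT, with a median of 0.023. Irf1, which interferons induce, was at 50.91, 58.28 and 72.21 FPKM in FOXO1-GFP KO and at 67.23, 72.13 and 81.91 FPKM with PI3Kdi. Its WT values were 56.35, 62.16 and 69.20 FPKM, and 59.87, 57.62 and 67.03 FPKM with PI3Kdi. Irf1 was thus higher in each FOXO1-GFP KO pair, by 0.30 ± 0.14 (adjusted p = 0.933, or 0.0164 with the block), and changed by -0.022 ± 0.14 in WT.

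Irf7, which drives interferon alpha genes, was at 7.69, 7.87 and 11.59 FPKM in FOXO1-GFP KO and at 11.14, 9.82 and 13.04 FPKM with PI3Kdi. Its WT values were 8.84, 8.62 and 11.31 FPKM, and 9.01, 9.46 and 12.05 FPKM with PI3Kdi. The response in FOXO1-GFP KO was 0.34 ± 0.19 (adjusted p = 0.933, or 0.0295 with the block). Stat2 was at 9.06, 12.07 and 15.03 FPKM in FOXO1-GFP KO and at 12.38, 12.83 and 17.52 FPKM with PI3Kdi, and at 12.47, 13.17 and 15.13 FPKM in WT and 14.06, 11.61 and 14.37 FPKM with PI3Kdi. Irf9 had the smallest standard error of the 4, with levels of 10.27, 11.07 and 12.63 FPKM in FOXO1-GFP KO and 12.60, 12.31 and 12.99 FPKM with PI3Kdi, and at 11.54, 12.52 and 12.93 FPKM in WT and 12.92, 12.33 and 13.53 FPKM with PI3Kdi. Neither Stat2 nor Irf9 had an adjusted p under 0.05 in a PI3Kdi comparison, with 0.101 and 0.0913 in FOXO1-GFP KO with the block.

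The ISG15, ubiquitin and ADP-ribosyl group (8 genes) split. Parp9, an ADP-ribosyl transferase partner of Dtx3l, had the highest level of the group, with 33.53, 29.33 and 27.49 FPKM in WT and 35.60, 28.79 and 29.21 FPKM with PI3Kdi. FOXO1-GFP KO gave 25.32, 27.66 and 25.32 FPKM, and 30.91, 28.76 and 26.47 FPKM with PI3Kdi, a log2 response of 0.14 ± 0.11. Parp9 and Dtx3l overlap on opposite strands of chromosome 16, and the strand setting of the count is not given in the sources used here, so their shared reads are uncertain. Usp18 had the largest response of the group in FOXO1-GFP KO, at 0.38 ± 0.13 (adjusted p = 0.709, or 0.01 with the block), while in WT it was -0.16 ± 0.13 (adjusted p = 1, or 0.21 with the block). Isg15 itself had wide replicate spread, with 14.84 to 33.29 FPKM within FOXO1-GFP KO alone.

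The OAS family (5 genes) includes enzymes that make the 2-5A messenger, which activates RNase L. All 5 had a positive log2 fold change with PI3Kdi in FOXO1-GFP KO, although that of Oasl1 was 0.0025 ± 0.23, and 2 did in WT. Oas3 was the most abundant, at 18.55, 20.48 and 18.87 FPKM in FOXO1-GFP KO and 20.55, 21.29 and 21.46 FPKM with PI3Kdi. In WT it was 23.92, 20.20 and 20.35 FPKM, and 24.89, 19.57 and 21 FPKM with PI3Kdi. Oas1a was at 2.12, 2.06 and 2.85 FPKM in FOXO1-GFP KO and at 3.10, 2.92 and 3.13 FPKM with PI3Kdi, without overlap. The Oas1a response was 0.38 ± 0.15 (adjusted p = 0.859, or 0.0198 with the block). Its WT levels were 2.55, 2.28 and 2.78 FPKM, and 2.40, 2.30 and 2.62 FPKM with PI3Kdi, a log2 fold change of -0.05 ± 0.15. Oas1a has close copies in its cluster, so its reads may be split among them.

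The IFIT family (3 genes), whose proteins bind foreign RNA ends, was low. Ifit2 was at 5.19, 4.0 and 3.98 FPKM in WT, 5.86, 3.34 and 3.83 FPKM in WT+PI3Kdi, 3.75, 3.84 and 4.43 FPKM in FOXO1-GFP KO and 4.76, 3.50 and 3.90 FPKM in FOXO1-GFP KO+PI3Kdi. All groups of Ifit2 overlapped. Ifit3 was at 0.59, 0.39 and 0.91 FPKM in WT, 0.84, 0.68 and 0.89 FPKM in WT+PI3Kdi, 0.36, 0.42 and 0.40 FPKM in FOXO1-GFP KO and 0.73, 0.46 and 0.55 FPKM in FOXO1-GFP KO+PI3Kdi. Its response in FOXO1-GFP KO was 0.45 ± 0.25 (adjusted p = 0.933, or 0.0937 with the block), from 9 to 44 reads per library. Ifit3 has a near-identical copy, which makes its count uncertain.

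Bst2, the most abundant member, was at 81.43, 110.53 and 123.45 FPKM in WT and 86.29, 102.43 and 121.60 FPKM with PI3Kdi. The FOXO1-GFP KO libraries had 83.16, 91.00 and 110.71 FPKM, and 98.03, 103.89 and 124.86 FPKM with PI3Kdi, a log2 response of 0.20 ± 0.18. Ifi35 was at 34.86, 45.36 and 51.52 FPKM in WT and 37.91, 43.94 and 51.18 FPKM in WT+PI3Kdi, and at 38.88, 40.99 and 56.09 FPKM in FOXO1-GFP KO and 47.34, 47.13 and 57.48 FPKM with PI3Kdi. Xaf1, which promotes cell death, was at 5.58, 7.77 and 9.24 FPKM in WT, 6.84, 8.23 and 9.70 FPKM in WT+PI3Kdi, 5.84, 5.70 and 8.99 FPKM in FOXO1-GFP KO and 7.56, 7.38 and 9.76 FPKM with PI3Kdi. Bst2, Ifi35 and Xaf1 were higher with PI3Kdi in all 3 FOXO1-GFP KO pairs, although their groups overlapped. With the block their adjusted p there was 0.099, 0.159 and 0.0829.

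The difference of the PI3Kdi responses, FOXO1-GFP KO minus WT, was tested directly. Limma called 0 of the 38 and 0 of all mRNAs (0%) without the block, and 0 of the 38 with it (0.0226% of all mRNAs), and voom on estimated reads called 0. At an unadjusted p under 0.05, 1 of the 38 passed without the block and 7 with it, all 7 in the positive direction, against 1435 of all 13283 mRNAs with the block, of which 914 were positive. The median difference was 0.12 (all mRNAs 0.021), and 30 of the 38 were positive (54.7% of all mRNAs). Without the vehicle library of FOXO1-GFP KO replicate 1 the median was 0.058, and without WT+PI3Kdi replicate 1 it was 0.21. The 95% interval lay within 1.5-fold for 7 of the 38 without the block and for 28 with it, against 31.9% and 70.6% of all mRNAs. Usp18 had the largest difference, 0.54 ± 0.18 (adjusted p = 1, or 0.0864 with the block). A greater response of these genes in FOXO1-GFP KO was therefore not established for any single gene.

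Of the 29 genes with a promoter window, the 12 with an ISRE core had a median PI3Kdi response of -0.035 in WT, and of 0.16 in the FOXO1-GFP KO libraries. The 17 without one had 0.022 and 0.17. Usp18, Mx1 and Rtp4, the members called without or with the block, had no window and are in neither group.

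A pathway list of 46 gene symbols covered interferon production, receptors and signalling, type II interferon included. It held Cgas also under its older symbol, Mb21d1. Of the 46 symbols, 35 were in the table, Cgas among them. The type I interferon genes Ifnb1, Ifna1, Ifna2 and Ifna4 were among those not in it. Without the block 0 of the 35 were called in any of the 5 comparisons, against 0% to 1.45% of all mRNAs. With the block, PI3Kdi in WT gave 2 higher (Ifngr2 and Irf4) and 1 lower (Ifng), against 2.57% of all mRNAs. PI3Kdi in FOXO1-GFP KO gave 1 higher (Ifngr2) and 1 lower (Ifng) with the block, against 2.79% of all mRNAs. Ifng, the type II interferon, was at 21.08, 24.86 and 32.44 FPKM in WT and 9.73, 14.55 and 15.63 FPKM with PI3Kdi. FOXO1-GFP KO libraries had 26.40, 27.25 and 32.30 FPKM with vehicle, and 21.68, 16.88 and 16.23 FPKM with PI3Kdi, so that neither genotype had overlapping groups. Its log2 fold changes were -0.97 and -0.65 (adjusted p = 0.000442 and 0.00656 with the block, 0.136 and 0.651 without). Ifngr2, a chain of its receptor, was at 4.0, 3.19 and 3.97 FPKM in WT and 7.01, 5.96 and 5.32 FPKM with PI3Kdi, and at 2.26, 2.54 and 4.11 FPKM in FOXO1-GFP KO and 5.87, 6.19 and 8.72 FPKM with PI3Kdi. The Ifngr2 groups did not overlap in either genotype, and differed by 0.70 and 1.22 on the log2 scale (adjusted p = 0.00275 and 0.000165 with the block, 0.533 and 0.218 without). Irf4 was at 14.70, 9.18 and 7.49 FPKM in WT and 19.66, 14.33 and 12.60 FPKM with PI3Kdi, and its groups overlapped (log2 0.60, adjusted p = 0.0078 with the block). In FOXO1-GFP KO its log2 fold change was 0.060 (adjusted p = 0.738 with the block), and the difference of the 2 responses was not called (adjusted p = 0.216 with the block).

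The type I receptor and its kinases were not called in any comparison. Ifnar1 was at 14.11 to 17.01 FPKM in WT and 17.29 to 18.93 FPKM with PI3Kdi, and at 14.09 to 17.84 FPKM in FOXO1-GFP KO and 16.36 to 20.74 FPKM with PI3Kdi. Its groups did not overlap in WT, and its responses were 0.23 in WT and 0.21 in FOXO1-GFP KO on the log2 scale (adjusted p = 0.0297 and 0.0354 with the block). Ifnar2 lay between 6.62 and 10.31 FPKM, Jak1 between 45.92 and 87.94 FPKM and Tyk2 between 9.19 and 12.39 FPKM in all 12 libraries. Socs1, an inhibitor of the JAK kinases, had responses of 0.41 in FOXO1-GFP KO (adjusted p = 0.0221 with the block) and 0.20 in WT.

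A further list of 69 interferon-stimulated genes outside the 38 had 63 in the table. Of these, 53 had a positive PI3Kdi response in FOXO1-GFP KO (median 0.18) and 48 in WT (median 0.076). All mRNAs gave 46.6% and 39.9% positive, with medians of -0.0195 and -0.0383. Unlike the 38, of which 18 were positive in WT, these further genes had mostly positive responses in both genotypes. Without the block 1 was called in any of the 5 comparisons, Epsti1, lower in FOXO1-GFP KO with PI3Kdi at 82.86, 81.60 and 84.44 FPKM against 129.60, 140.17 and 141.00 FPKM in WT+PI3Kdi (log2 -0.72, adjusted p = 0.00262, or 0.00413 with the block). In that comparison 1.45% of all mRNAs were called, or 1.18% with the block. The vehicle libraries of Epsti1 were at 95.16, 101.31 and 101.34 FPKM in WT and 67.00, 71.69 and 81.32 FPKM in FOXO1-GFP KO, so the genotypes did not overlap there either. With the block PI3Kdi in WT gave 3 higher, Ifit1bl1 (0.73), Ms4a4c (0.66) and Slfn1 (0.65 on the log2 scale), against 2.57% of all mRNAs. In FOXO1-GFP KO their responses were 0.55, 0.35 and 0.35, under the fold threshold (adjusted p = 0.0084, 0.151 and 0.0248 with the block). PI3Kdi in FOXO1-GFP KO gave 1 higher, Ifitm1, which blocks virus entry (0.60, adjusted p = 0.00344), against 2.79% of all mRNAs. In WT the Ifitm1 response was 0.49, also under the fold threshold (adjusted p = 0.00955 with the block). The difference of the responses was not called for any of these genes. Between genotypes with PI3Kdi, the log2 fold changes of Ifit1bl1, Slfn1 and Ms4a4c were -0.70, -0.66 and -0.62, lower in FOXO1-GFP KO. That of Ifitm1 was -0.040. The 3 larger changes were not called (limma adjusted p = 0.205, 0.178 and 0.62, or 0.209, 0.12 and 0.617 with the block). The study, which fitted voom to counts, listed Ifit1bl1 and Slfn1 as FOXO1 dependent.

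Exon length moved with the members' values in some libraries. The Spearman correlation across the 38 genes between exon length and a gene's log2 deviation from its own mean was 0.53 and 0.52 in the WT and WT+PI3Kdi libraries of replicate 1. It was between -0.52 and 0.22 in the other 10 libraries. Genes are not independent replicates, and the same correlation over 10369 mRNAs was 0.55 and 0.54 in that pair and -0.49 to 0.37 in the others. The longer 19 of the 38 had a median deviation of 0.21 and 0.33 in that pair, and the shorter 19 of -0.12 and -0.097. Dtx3l (5725 bases of exon), chosen as a large example after its values were seen, was at 35.48 and 37.91 FPKM against 18.04 to 21.42 FPKM in the other 4 WT libraries. Not every long member was high there, and Stat2 (5926 bases) was at 12.47 FPKM in WT replicate 1 against 13.17 and 15.13 FPKM in the others. Isg15, the shortest member (756 bases), was at 17.77 and 16.43 FPKM there, against 17.93 to 31.26 FPKM. Without that pair the block called 2 members with PI3Kdi in WT, Mx1 and Samhd1, and still 1 in FOXO1-GFP KO, Rtp4. With length and GC trends removed from each library, the block called Samhd1 in WT and Rtp4 in FOXO1-GFP KO. The Mx1 response in WT was then -0.56 (adjusted p = 0.00117), under the fold threshold.

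**Figure D4:**
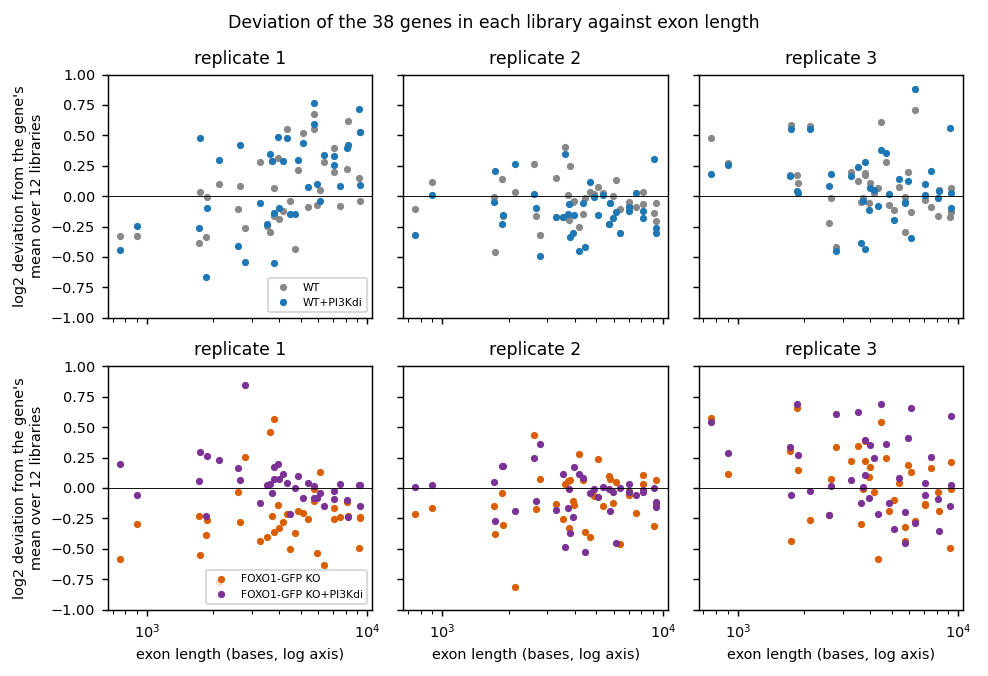
log2 deviation of each of the 38 genes from its mean over the 12 libraries against exon length (log axis), with 1 panel for each replicate number of WT (top row) and FOXO1-GFP KO (bottom row). In WT replicate 1 the points climb with length in both libraries (Spearman 0.53 and 0.52 across the 38 genes).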

How the data were processed

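The data were RNA-seq of sorted CTL, 4 groups of 3 libraries, grouped by the labels, from 300 ng of total RNA and a stranded mRNA kit. The authors aligned reads with STAR 2.7.1a to GRCm38.p6, counted them per gene, dropped weakly detected genes (edgeR filterByExpr) and computed FPKM from TMM-scaled library sizes and total exon length. Deposited were these FPKM values, to 2 decimals, of 13283 mRNAs, with 0 further columns of values per sample. Fold changes understate those of mRNAs near the pseudocount of 0.1 FPKM.

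Differences came from limma 3.58.1 in R 4.3.3: 4 group means fitted to log2(FPKM + 0.1) of all mRNAs, 5 contrasts, empirical Bayes with a trend, and no further filter, so all 38 members were tested. The pair entered as a random block within genotype. Deviations from the group means correlated at 0.596 to 0.838 between equally numbered WT libraries and 0.594 to 0.780 between those of FOXO1-GFP KO, over 10373 mRNAs, so the numbers were taken to pair the libraries. Depth, here the TMM-scaled library size, was estimated from genes up to 400 bases long. In longer genes held out, 98.6 to 100% of values came out as whole reads to within 0.2 of a read (40.0% by chance). WT replicate 2, with the greatest depth, had only 18 such values. Voom ran on the reads estimated with these depths. Of the 38 members, 3 (Mx2, Ifi44 and Ifit3) had under 10 reads in some library. The fits were tested on simulated data. Exon length came from GENCODE M21. The labels call the replicates biological but do not name the mice, so p-values measure the spread between these libraries.

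The members, lists and tests were chosen with earlier results of these data known. Named with values were members called in any comparison, the most abundant and the most responsive (PI3Kdi in FOXO1-GFP KO) member of each role, and Stat2, Irf9, Irf7 and Irf1. Samhd1, Isg15, Dtx3l, Isg20 and Rsad2 were named after their values were seen. Alternatives tried were the pseudocount, a filter on low FPKM, centring, only the groups compared, no fold minimum, voom, both forms of block, leaving out each library or pair and, chosen after seeing the data, removal of length and GC trends and leaving out the WT replicate 1 pair.

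One gene of the pathway list is not reported here.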

Additional observations from a re-analysis of the deposited data

Results flagged for a closer look

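Usp18 and Isg20 were the 2 of 38 genes whose PI3Kdi response was lower in all 3 WT pairs and higher in all 3 FOXO1-GFP KO pairs. Of all mRNAs in the table, 3.03% went opposite ways in this manner. The difference of the responses of Usp18, FOXO1-GFP KO minus WT, was 0.542 on the log2 scale, from 0.38 in FOXO1-GFP KO and -0.16 in WT. The limma test of that difference gave an adjusted p of 1 (0.0864 when pairs were blocked). For Isg20, an exonuclease of single-stranded RNA, the difference was 0.419, from 0.14 and -0.28, with an adjusted p of 1, or 0.367 with the block. Neither difference passed the test.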

How the results depend on the processing

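Usp18 between genotypes with PI3Kdi was called under all 24 alternatives (log2 fold change 0.977 to 1.22, adjusted p 0.00178 to 0.0219). Most other calls depended on the replicate block. With the block, as a random term, as fixed terms or with voom, 1 member was called for PI3Kdi in WT (Mx1) and 1 for PI3Kdi in FOXO1-GFP KO (Rtp4), against 0 and 0 without it. Over 25 alternatives each, the adjusted p of Mx1 in WT was 0.000174 to 0.835 and that of Rtp4 0.00445 to 1. The block as fixed terms gave no genotype comparison. With a pseudocount of 1 FPKM the block called 0 members in WT and 0 in FOXO1-GFP KO, and with no fold minimum 2 and 8. With length and GC trends removed, chosen after seeing the data, 1 member was called for PI3Kdi in WT (Samhd1, with or without the block), 1 in FOXO1-GFP KO with the block (Rtp4) and 1 between genotypes without PI3Kdi (Rtp4, lower in FOXO1-GFP KO, without the block). Without both libraries of WT replicate 1, also chosen after seeing the data, the block called 2 members in WT and 1 in FOXO1-GFP KO. The cause of these shifts was not tested.

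Leaving out 1 library at a time, the count between genotypes with PI3Kdi was 1 to 2, the second being Samhd1 without WT+PI3Kdi replicate 2. The median PI3Kdi response in WT was -0.0685 without WT+PI3Kdi replicate 1 and 0.0963 without WT+PI3Kdi replicate 2, so its sign, near 0 in the full data, changed. The median between genotypes with PI3Kdi, -0.037 in the full data, also changed sign, at -0.125 to 0.0204. In the fit with the block, leaving out 1 pair at a time gave 1 to 2 members in WT, with 2 without WT pair 1 or pair 2. In FOXO1-GFP KO it gave 0 to 1, with Rtp4 lost without pair 1 or pair 2. The median response in FOXO1-GFP KO stayed positive in every alternative, at 0.0719 (without FOXO1-GFP KO replicate 1) to 0.231. The members under 1 FPKM are limited by depth.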
